A study of Homo sapiens with 8 samples.

Results

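Solute carriers are membrane proteins that move ions, nutrients and metabolites across the plasma membrane, the mitochondrial inner membrane and the membranes of the Golgi and other organelles, and their human genes carry the symbol SLC followed by a family number. The genes described here are the protein-coding genes named in this way by GENCODE on hg38 whose locus reached 10 or more normalized counts in 3 or more of the 6 short-read libraries. Of 373 such symbols in the annotation, 226 met this rule, 55 fell below it, 67 were at 0 in every library, and 25 had no row under their own name. All 25 without a row were overlapped by a row of the count table that was named for another gene, in 21 cases, or that was unnamed, in 4. The 226 members were part of 26066 loci tested and of 12453 protein-coding genes tested. They came from 46 families and spanned 1.30 to 583 kb, with a median of 37.3 kb, and they took between 0.884% and 1.04% of the gene reads of a library.

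The samples came from HAP1, an established near-haploid human line derived from the KBM-7 leukaemia line, grown without any treatment or genetic change in either group. Nuclei were extracted with urea and detergent, and the RNA left in the pellet (chromatin fraction) was compared with the RNA released into the supernatant (nucleoplasm fraction). Both fractions of 3 cultures were sequenced as stranded short reads after removal of ribosomal RNA, which gave 3 chromatin and 3 nucleoplasm libraries, and chromatin RNA alone was read as nanopore cDNA in 2 libraries. The cytoplasm, where mature messenger RNA collects, is not part of either fraction, so a level here is a nuclear level. The chromatin libraries held 38895027 to 43804918 reads and the nucleoplasm libraries 75737601 to 79523938. A fraction's signal depends on both how much RNA a gene makes and where that RNA lies, and these cannot be told apart in bulk fractions. The fraction of each library was taken from its title, since a second label of the deposit names chromatin for all libraries, the nucleoplasm ones included. The titles were checked on 4 genes, of which the nuclear-retained MALAT1 and PVT1 were higher in chromatin (log2 fold change 3.09 ± 0.08 and 3.11 ± 0.10, SE) and the messenger RNAs GAPDH and B2M higher in nucleoplasm (-2.35 ± 0.08 and -2.11 ± 0.08). Of 10 genes listed for the cell type, BCR, ABL1, VIM, KRT18 and EPCAM were detected, the blood genes GATA1, PTPRC and SPI1 were at 0 in all 6 libraries, CD34 lay at 0 to 3.60 normalized counts, and HBG1 had no row under its name.

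Messenger RNA is transcribed on chromatin, spliced there for the most part while it is still attached, and released through the nucleoplasm to the cytoplasm. Nascent and unspliced RNA is therefore known to be held by the chromatin pellet, and finished messenger RNA to be more common among the released RNA. Where introns are removed, the splicing machinery first pairs the U1 small nuclear RNA with the 5′ end of the intron, where GTAAGT is the best-known run of intron letters. The 5′ end of the longest intron of a member's canonical transcript is shown for the 4 members highest in chromatin whose mean count was 100 or more and for the 4 lowest members, leaving out SLC52A2 and genes without introns. Each line holds 20 bases of GRCh38, written 5′ to 3′ on the gene's strand, with 10 exon bases and the later intron bases in lower case and the first 6 intron bases in capitals. The first 4 belong to genes higher in chromatin and the last 4 to genes higher in nucleoplasm.
SLC25A27 (intron 5′ end at chr6:46671219-46671238, + strand): gctgagaatgGTAAAGttag
SLC25A28 (intron 5′ end at chr10:99620035-99620054, - strand): ctgcgtcaagGTGAGAcctg
SLC35B3 (intron 5′ end at chr6:8427927-8427946, - strand): aaaggaggagGTATGTggtt
SLC22A15 (intron 5′ end at chr1:115992234-115992253, + strand): cgcctcggagGTAACAacag
SLC25A5 (intron 5′ end at chrX:119468617-119468636, + strand): gctgctgcagGTACGTcctg
SLC25A6 (intron 5′ end at chrX:1391889-1391908, - strand): gctgctgcagGTGGGGacgc
SLC50A1 (intron 5′ end at chr1:155136942-155136961, + strand): ccctcggaagGTAGAGgccc
SLC35B2 (intron 5′ end at chr6:44256332-44256351, - strand): agggctccagGTGGGTaggt
None of these 8 sites reads GTAAGT from the first intron base. Over all introns of canonical transcripts, 302 of 2253 donor sites of SLC genes (13.4%) began with GTAAGT, against 13.9% of 139608 sites of protein-coding genes tested. The share was 13.7% in members higher in chromatin and 13.3% in members higher in nucleoplasm at an adjusted p under 0.05. The match was searched on the gene's strand alone and describes letters, not use of a site.

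Chromatin was compared with nucleoplasm by limma on log2(normalized count + 1), with p-values adjusted over all 26066 loci. A log2 fold change is chromatin over nucleoplasm throughout. Its SE is that of limma, from 3 libraries a fraction, with the variance of each locus drawn toward a trend over all loci. Called genes passed an adjusted p under 0.05 and a change of over 4-fold. Of the 226 SLC genes, 9 were called in chromatin (3.98%), where 21.2% of all loci tested and 3.76% of protein-coding genes were called. In nucleoplasm 3 SLC genes (1.33%) were called, against 8.47% of all loci and 5.71% of protein-coding genes. At the adjusted p alone 68 SLC genes (30.1%) were higher in chromatin, beside 44.2% of all loci and 30.1% of protein-coding genes, and 121 (53.5%) were higher in nucleoplasm, beside 45.2% and 57.6%. The remaining 37 passed neither way. The 3 libraries of one fraction lay wholly above those of the other in 67 members higher in chromatin and 122 higher in nucleoplasm, where the shares were 44.6% and 46.0% over all loci and 30.6% and 58.3% over protein-coding genes.

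Most carriers differed little in size. The log2 fold changes of 148 members were within 1 unit of 0, 31 were above 1 and 47 below -1, with 86 above 0 and 140 below. Their median was -0.33, against -0.39 for protein-coding genes and -0.02 for all loci tested. These signs depend on the scaling: after scaling every library to equal counts of the spiked-in ERCC standards the median of all loci moved to -1.33 and 65 members changed sign, and after scaling to equal counts of gene reads it moved to 0.44 and 36 members changed sign. All members that turned with the ERCC total had a log2 fold change of 0.01 to 1.26 as given here, and those that turned with the gene total one of -0.44 to -0.01. The SLC median stayed 0.31 to 0.32 log2 units below that of all loci in all 3 scalings. Families and classes below are therefore given relative to all loci. All loci include long noncoding RNAs and loci within introns, most of them higher in chromatin. The protein-coding median also lay below that of all loci, at -0.39 against -0.02. A class below all loci need not lie below protein-coding genes.

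**Figure D1:**
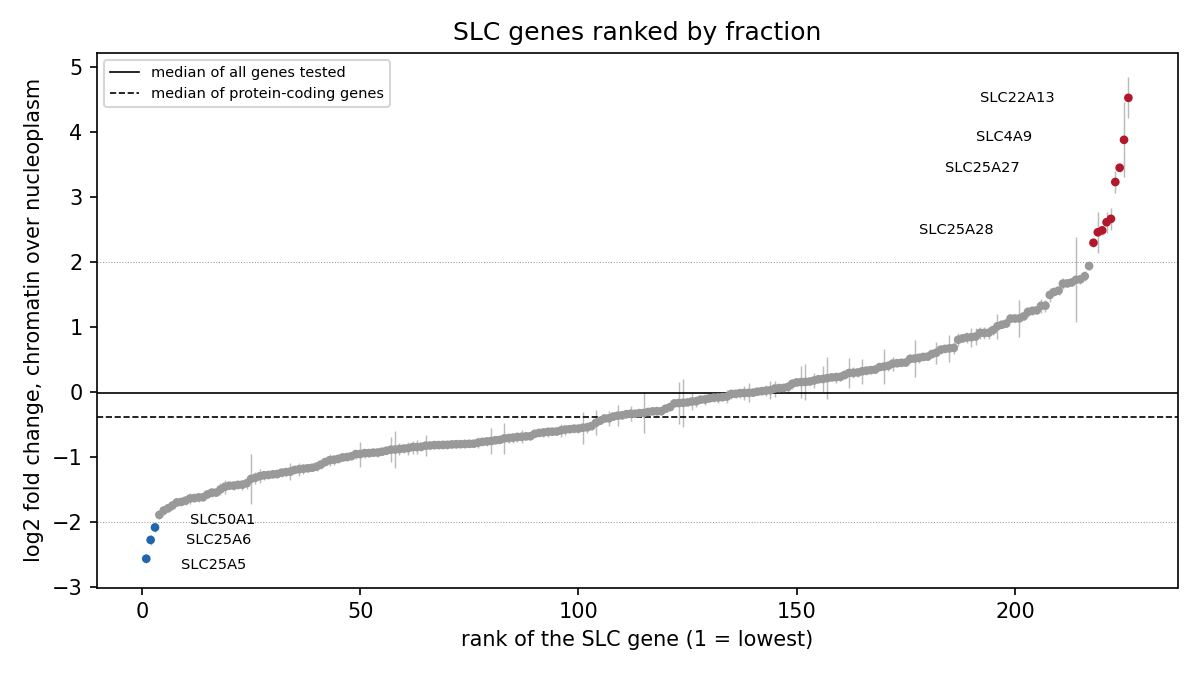
Log2 fold change of chromatin over nucleoplasm (y axis) for the 226 SLC genes in rank order (x axis). Bars are the limma SE from 3 libraries a fraction. Red points are the 9 genes called in chromatin and blue points the 3 called in nucleoplasm. Dotted lines mark the 4-fold limit. Most members lie within 1 log2 unit of 0, and the highest, SLC22A13, stands at 4.53 against -2.57 for the lowest, SLC25A5.

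The 9 genes called in chromatin were carriers of organic anions, peptides, ions, sulphate donors and mitochondrial substrates, and 6 of them had a mean under 100 normalized counts. SLC25A27 encodes uncoupling protein UCP4 of the mitochondrial inner membrane and was the most abundant of the 9. Its locus, given as MSTRG.28232 (hg38 chr6:46652915-46678190, + strand), held 3705, 4220.1 and 3836 normalized counts in the chromatin libraries. The nucleoplasm libraries held 373, 356 and 339.6, which gave 3.45 ± 0.06 as the log2 fold change (adjusted p = 8.39e-09). No library of one fraction came near those of the other. SLC25A28 encodes mitoferrin 2, an iron carrier of the mitochondrial inner membrane, and read 1716, 1672 and 1485 against 293, 288 and 281 (2.49 ± 0.07, adjusted p = 1.18e-08). SLC35B3 encodes a Golgi carrier of the sulphate donor PAPS and read 2625, 2769 and 2683 against 563, 577 and 501 (2.30 ± 0.06, adjusted p = 1.24e-08). It was the lowest of the 9 and is named because it completes them, after its values were seen. In each of these abundant genes the replicates of a fraction lay close together and far from those of the other. With the same ERCC total SLC25A27 remained called, while SLC25A28 (1.17) and SLC35B3 (0.98) fell below the 4-fold limit.

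The other 6 had low counts in nucleoplasm. SLC15A2, the peptide carrier PEPT2, read 169, 201 and 150.4 in chromatin and 20.2, 14.6 and 17.7 in nucleoplasm (3.24 ± 0.17, adjusted p = 1.95e-07). SLC22A11, the organic anion carrier OAT4, read 68.7, 58.8 and 69.2 against 9.65, 10.3 and 8.45 (2.67 ± 0.17). SLC10A5, an intronless member of the bile acid carrier family, read 69.9, 87.7 and 80.1 against 13.2, 11.2 and 11.8 (2.62 ± 0.16). In these 3 genes the groups stood apart by several times the spread of their libraries. With the same ERCC total their calls were lost, at 1.95 for SLC15A2, 1.41 for SLC22A11 and 1.35 for SLC10A5. SLC4A9, an anion exchanger best known from the kidney, read 37.3, 32.4 and 40.6 against 0, 1.72 and 5.07 (3.88 ± 0.58, adjusted p = 0.000214), the latter from 0, 2 and 6 reads. Its value was 3.21 without nucleoplasm replicate 1 and 4.51 without nucleoplasm replicate 3. The mitochondrial carrier SLC25A34 read 22.1, 20.4 and 16.5 against 2.63, 4.30 and 1.69 (2.46 ± 0.32, adjusted p = 8.52e-05). Its call was lost with a pseudocount of 5 (1.65) and with the same ERCC total (1.35). SLC22A13, an organic anion and urate carrier, had 22, 20 and 16 reads in chromatin (25.6, 24.0 and 17.6 normalized counts) and no read in nucleoplasm. Set against a floor of 3 reads per nucleoplasm library the chromatin level was at least 8.67-fold higher, while its fitted value of 4.53 depends on the pseudocount. SLC22A13, SLC4A9 and SLC25A34 passed the filter on low counts through chromatin alone, so that they had to differ, and SLC32A1, a vesicular carrier of inhibitory transmitters, passed through nucleoplasm alone.

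The genes called in nucleoplasm were the 2 most abundant members per length and a short sugar carrier. SLC25A5 encodes ANT2, which exchanges ADP for ATP across the mitochondrial inner membrane. Its locus MSTRG.35538 (hg38 chrX:119468422-119471396, + strand) held 8411, 7099 and 8349.5 normalized counts in chromatin and 46224, 46641 and 48080.4 in nucleoplasm (-2.57 ± 0.07, adjusted p = 1.20e-08), with no chromatin library near any nucleoplasm library. SLC25A6 encodes the sister carrier ANT3 and read 3962, 3506 and 4185 against 17944, 18707 and 19718 (-2.28 ± 0.07, adjusted p = 1.70e-08). It lies in the region shared by both sex chromosomes, where the table lists it once per copy, and the row on X was used. Together these 2 carriers held 2.46% of the normalized counts of all SLC genes in chromatin and 11.0% in nucleoplasm. SLC50A1, which encodes the glucose carrier SWEET1, read 423, 409.5 and 473 against 1846, 1843 and 1846 (-2.08 ± 0.06, adjusted p = 1.59e-08). Its fold lay at the limit, and the call was lost in DESeq2 (-1.99) and with the same total of gene reads (-1.62), where that of SLC25A6 was lost as well (-1.81).

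The next 5 from that end kept below the 4-fold limit and did not overlap between fractions. SLC52A2, a riboflavin carrier, read 292, 292 and 304 against 1065, 1084 and 1155 (-1.89 ± 0.06). SLC35B2, which like SLC35B3 carries PAPS into the Golgi, read 502, 429 and 465 against 1623, 1639 and 1679 (-1.82 ± 0.07), so that the pair stood near opposite ends of the family. SLC35F2 had a log2 fold change of -1.79 ± 0.06. The ATP-magnesium and phosphate carrier SLC25A23 had -1.75 ± 0.06. The citrate carrier SLC25A1 had -1.70 ± 0.06. The largest adjusted p of the 5 was 2.94e-08, in SLC35B2.

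**Figure D2:**
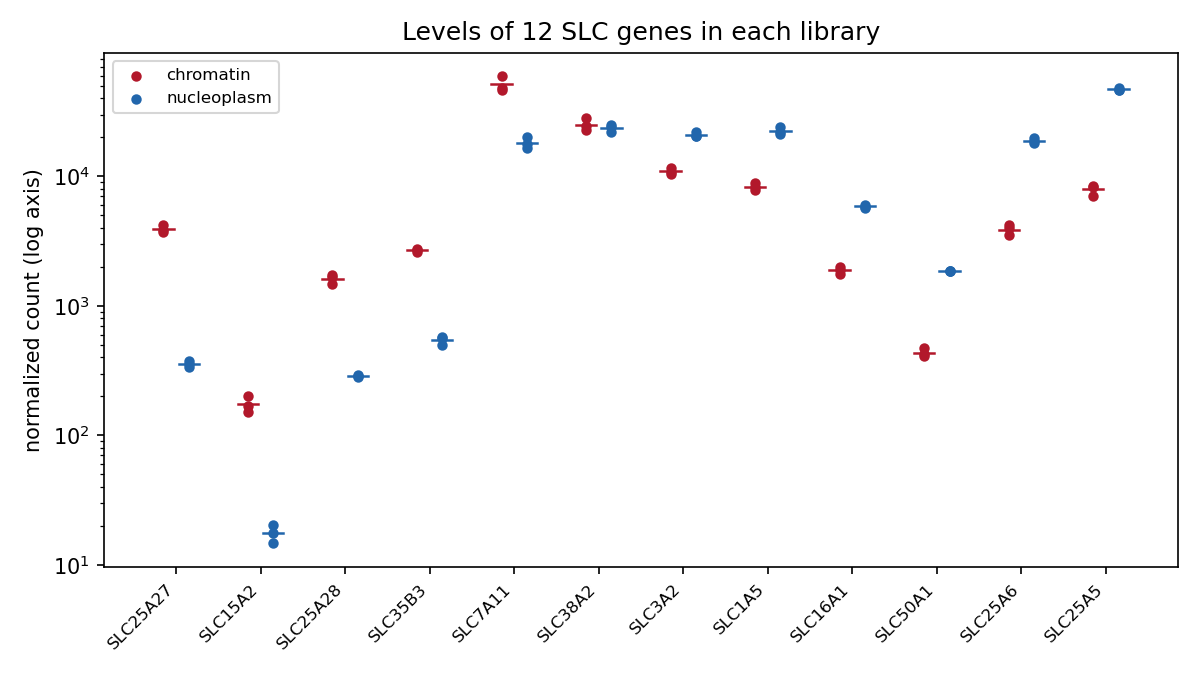
Normalized counts (log axis) of 12 SLC genes in the 3 chromatin (red) and 3 nucleoplasm (blue) libraries, each point a library and each bar the mean. SLC25A27, SLC15A2, SLC25A28, SLC35B3 and SLC7A11 are higher in every chromatin library, SLC38A2 overlaps, and the other 6 are higher in every nucleoplasm library.

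The mitochondrial carriers of the SLC25 family, which pass nucleotides, phosphate, metals and metabolites through the inner membrane, were the largest family with 39 members and covered almost the whole range, from -2.57 to 3.45. In this family 13 members were higher in chromatin and 24 in nucleoplasm at the adjusted p, with 3 and 2 of them called. These shares, 33.3% and 61.5%, were near the 30.1% and 57.6% of protein-coding genes at the same threshold. The family median lay 0.59 log2 units below that of all loci. The third ADP and ATP carrier, SLC25A4, read 1542, 1391 and 1708 against 3321, 3535 and 3639 (-1.18 ± 0.08). The phosphate carrier SLC25A3, which supplies ATP synthase, read 19434, 16670.2 and 19469 against 35537, 34517 and 36303 (-0.94 ± 0.07, adjusted p = 1.79e-06). Both mitoferrins were higher in chromatin, SLC25A28 at 2.49 and SLC25A37 at 1.04 ± 0.05, the latter with 4913, 4627 and 4638 against 2255, 2299 and 2352 and a sign that turned with the ERCC scaling. SLC25A36, a pyrimidine nucleotide carrier, was also abundant and higher in chromatin, with 21065, 20287 and 21408 against 6726, 6379.9 and 6372 (1.69 ± 0.05). SLC25A37, the value of SLC25A36 and those of other genes outside the naming rule were picked after the values were seen.

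Amino acid carriers numbered 32, of which 9 were higher in chromatin and 19 in nucleoplasm at the adjusted p, and none was called. These shares, 28.1% and 59.4%, were near the 30.1% and 57.6% of protein-coding genes. Their median lay 0.63 log2 units below that of all loci. SLC7A11, the cystine and glutamate exchanger xCT, had the highest mean count of all 226 members, and it was among the abundant carriers that were higher in chromatin. It read 48389, 59227 and 46445 in chromatin and 17725, 20175 and 16573 in nucleoplasm (1.50 ± 0.11, adjusted p = 1.42e-06). Its partner in the membrane, the glycoprotein SLC3A2, read 11648, 10364 and 10854 against 20389, 21999 and 20619 (-0.94 ± 0.06), and SLC7A5, the large neutral amino acid carrier LAT1 that uses the same partner, read 8169, 7021 and 7195 against 11130.4, 12236 and 10842 (-0.61 ± 0.07). The light chain xCT and the heavy chain thus had opposite signs. With the same ERCC total SLC7A11 was at 0.17 and no longer passed (adjusted p = 0.397, limma), while SLC3A2 was at -2.26. SLC1A5, the glutamine carrier ASCT2, read 8836, 7877 and 8266 against 22189.7, 23935 and 21160.1 (-1.43 ± 0.06, adjusted p = 8.02e-08). The glutamate carrier SLC1A3 read 4033, 4804 and 3843 against 1194, 1226 and 1242 (1.78 ± 0.08), at the other end of its family. SLC38A2, a neutral amino acid carrier, read 24433, 22826 and 28054 against 24235, 24783 and 22063, groups that overlapped (0.08 ± 0.08, adjusted p = 0.378). Its relative SLC38A1 read 14486, 14769 and 14824 against 18550.3, 18813 and 17175 and was slightly higher in nucleoplasm (-0.31 ± 0.05, adjusted p = 0.000367), a sign that turned to 0.16 under scaling to equal gene reads.

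Sugar carriers had the lowest class median, 0.83 log2 units below that of all loci, with 2 of 13 higher in chromatin and 9 in nucleoplasm. These shares were 15.4% and 69.2%, beside 30.1% and 57.6% of protein-coding genes. SLC2A1, the glucose carrier GLUT1, read 565, 431 and 536 against 957, 914 and 872 (-0.85 ± 0.10, adjusted p = 4.82e-05). SLC2A3, which was on the list of genes to describe, had no row under its name, like SLC20A1 and SLC35A1. Organic acid, lipid and organic ion carriers, with 44 members, had 15 higher in chromatin and 24 in nucleoplasm and a median 0.36 below that of all loci. Their shares, 34.1% and 54.5%, were near the 30.1% and 57.6% of protein-coding genes, and their median of -0.38 was near -0.39. Of these 44 carriers, the SLC16 family, which includes the lactate carriers, had 7 of 11 members higher in nucleoplasm (63.6%, beside 57.6% of protein-coding genes), 2 higher in chromatin and a median 0.79 below that of all loci. SLC16A1 (MCT1) read 1899.6, 1758 and 2010.0 against 5723, 6024 and 5808 (-1.63 ± 0.06), and SLC16A3 (MCT4) read 1709.7, 1469.9 and 1731 against 5151, 5108 and 5358 (-1.67 ± 0.07). All 5 fatty acid carriers of the SLC27 family were higher in nucleoplasm at the adjusted p, from -0.84 to -1.27, and remained so under both other scalings. The organic ion carriers of the SLC22 family had 6 of 9 members higher in chromatin (66.7%, beside 30.1% of protein-coding genes), 2 higher in nucleoplasm and a median 0.63 above that of all loci. SLC22A13, among those higher in chromatin, passed the filter through chromatin alone and had to differ. With the same ERCC total 6 of the 9 were below 0. There 3 passed the adjusted p in chromatin and 5 in nucleoplasm, while the median stayed 0.63 above that of all loci. SLC22A15 of this family read 2459.8, 2708 and 2387 against 633, 657 and 672 (1.94 ± 0.06).

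Metal carriers numbered 24, with 5 higher in chromatin (20.8%) and 14 in nucleoplasm (58.3%), beside 30.1% and 57.6% of protein-coding genes. Zinc is moved in opposite directions by members of a pair of these families. The SLC39 or ZIP proteins bring zinc into the cytosol, and all 8 members had a log2 fold change below 0, 7 of them at the adjusted p (87.5%, beside 57.6% of protein-coding genes), with a median 1.03 below that of all loci. Under scaling to equal gene reads 1 of the 8, SLC39A13, changed sign. SLC39A8, known for zinc and manganese uptake, read 1041, 966 and 1167 against 3366, 3287 and 3102 (-1.62 ± 0.07). SLC39A7 of the endoplasmic reticulum read 526, 406 and 462 against 1337, 1312 and 1275 (-1.50 ± 0.09). SLC39A6 read 3199, 3076 and 3506 against 7474, 7345 and 7105 (-1.17 ± 0.06, adjusted p = 1.40e-07). The SLC30 or ZnT proteins take zinc out of the cytosol, and of their 8 members 4 were higher in chromatin (50.0%) and 3 in nucleoplasm (37.5%), with a median 0.10 above that of all loci. With the same ERCC total all 8 members of each family had a log2 fold change below 0 and passed the adjusted p, and the median of SLC30 stayed 0.09 above that of all loci and that of SLC39 1.04 below it. The exporter of the plasma membrane, SLC30A1, read 1000.4, 819 and 996 against 1073, 903 and 973, groups that overlapped (-0.07 ± 0.10, adjusted p = 0.502). SLC30A5 read 1512, 1448 and 1592 against 3696, 3565 and 3433 and was the lowest of its family (-1.23 ± 0.05). The difference between the 2 families was not tested. The copper carrier SLC31A1 (CTR1) read 1551, 1458 and 1451 against 4852, 4856 and 4709 (-1.69 ± 0.05), while its relative SLC31A2 read 67.6, 72.1 and 74.6 against 42.1, 38.7 and 36.3 (0.86 ± 0.13). With the same ERCC total both were below 0, 1 of them past the adjusted p, so the signs no longer parted.

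Inorganic ion carriers, with 37 members, were centred at the median of all loci, 0.01 above it. Their median of -0.01 lay above the -0.39 of protein-coding genes. Of these carriers 11 were higher in chromatin (29.7%) and 14 in nucleoplasm (37.8%), beside 30.1% and 57.6% of protein-coding genes. The sodium, potassium and chloride carrier SLC12A2 (NKCC1) read 2268, 2422 and 2333 against 4263, 4147 and 3877 (-0.81 ± 0.05, adjusted p = 8.13e-07). In the anion exchanger family SLC26, 6 of 7 members were above 0, with 3 of them past the adjusted p (42.9%). Of protein-coding genes 36.3% were above 0, and 30.1% were higher in chromatin at the adjusted p. With the same ERCC total all 7 members of SLC26 were below 0, and 6 passed the adjusted p in nucleoplasm. Carriers of vitamins, nucleosides and haem numbered 12, with 4 higher in chromatin (33.3%), 5 in nucleoplasm (41.7%) and a median 0.08 below that of all loci (0.01 below it without chromatin replicate 3, 0.02 without nucleoplasm replicate 2 and 0.12 without nucleoplasm replicate 3). SLC19A1, the reduced folate carrier, read 1078, 1019.6 and 1103 against 2064, 2171 and 2299.7 (-1.03 ± 0.06), whereas the thiamine carrier SLC19A2 read 5168, 5604 and 5765 against 2629, 2462 and 2442 (1.13 ± 0.06). The nucleoside carriers SLC29A1 and SLC29A2 parted in the same manner, with 1783, 1689.7 and 1813 against 3363, 3641 and 3621 for the first (-1.01 ± 0.05) and 1933, 1825 and 1714 against 797, 806 and 834 for the second (1.16 ± 0.06). With the same ERCC total all 3 members of SLC19 and all 4 of SLC29 were below 0, so the signs no longer parted. The SLC35 family of nucleotide sugar and other Golgi carriers split almost evenly, with 8 of 19 higher in chromatin (42.1%) and 9 in nucleoplasm (47.4%) and a median 0.30 below that of all loci, a distance that was 0.08 without nucleoplasm replicate 3, 0.13 without chromatin replicate 1 and 0.43 without chromatin replicate 3. Of the 226 members, 4 belonged to families outside these classes, and SLC4A1AP and SLC7A6OS, whose symbols name an adaptor and an opposite-strand neighbour, are not carriers.

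**Figure D3:**
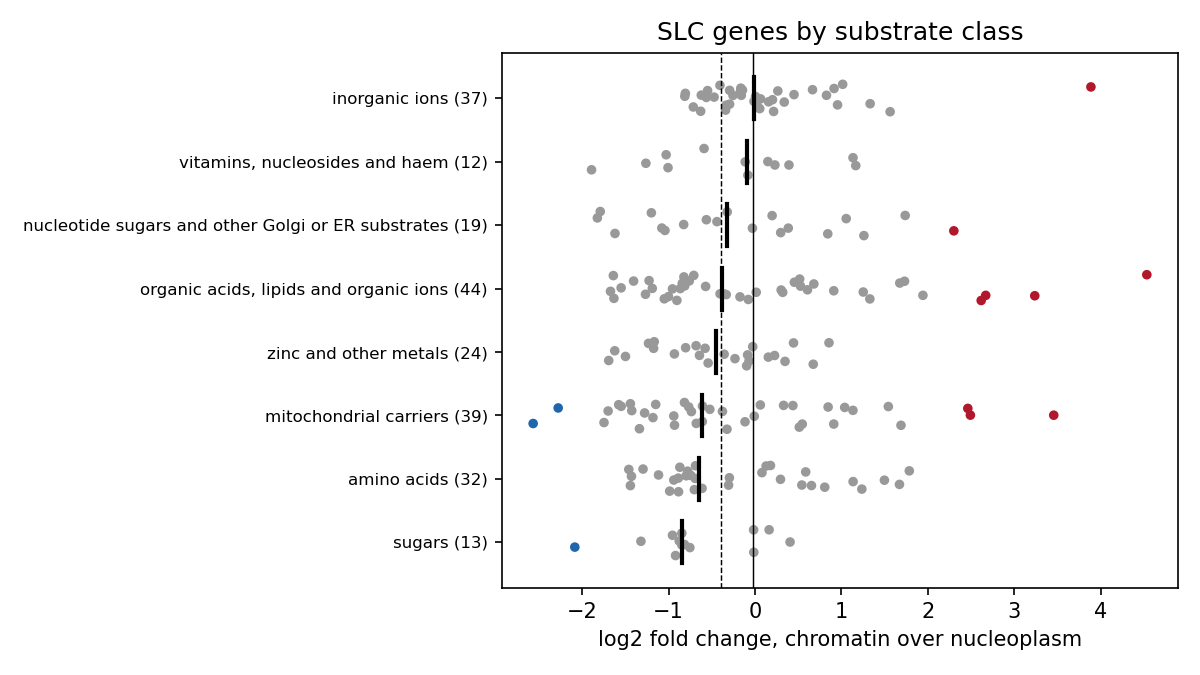
Log2 fold change of chromatin over nucleoplasm (x axis) for the SLC genes of 8 substrate classes (y axis, number of genes in brackets), each point a gene and each thick bar a class median; red and blue points are genes called in chromatin and nucleoplasm, the thin line is the median of all loci tested and the dashed line that of protein-coding genes. Class medians run from -0.85 for sugars to -0.01 for inorganic ions, and every class holds genes on both sides of 0; after scaling to equal gene reads the medians of 4 classes besides inorganic ions lie above 0.

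Gene span had almost no rank relation to the log2 fold change in SLC genes. Across the 226 SLC genes the Spearman correlation of span with log2 fold change was 0.011, against 0.234 across 12453 protein-coding genes. Genes are not independent replicates, and all points share the same 6 libraries, so both are descriptions. The median was -0.57 for 34 SLC genes under 10 kb, -0.12 for 59 of 10 to 30 kb, -0.36 for 95 of 30 to 100 kb and -0.33 for 38 of 100 kb or more. Protein-coding genes went up steadily over the same bins, through -0.79, -0.60 and -0.35 to -0.06. The 9 genes called in chromatin spanned at most 49.8 kb, and none of the 38 SLC genes of 100 kb or more was called. Of 2837 protein-coding genes of that span 107 were called in chromatin, and of all protein-coding genes 3.76%. At such shares few calls would fall among 38 genes, so their absence cannot be read as a trait of SLC genes.

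The 5 longest members were spread over both sides. SLC9A9, a sodium and proton exchanger of endosomes and the longest at 583 kb, read 18.6, 20.4 and 26.3 against 34.2, 28.4 and 28.7 (-0.47 ± 0.19, adjusted p = 0.0424). SLC4A10, a bicarbonate carrier of 561 kb, was higher in chromatin, with 537, 557 and 607 against 253, 213 and 209.5 (1.33 ± 0.09). SLC8A1, the sodium and calcium exchanger NCX1 of 514 kb, read 15.1, 21.6 and 9.88 against 19.3, 20.7 and 11.8 and overlapped (-0.17 ± 0.33, adjusted p = 0.634). SLC27A6 of 496 kb read 102, 108 and 122 against 213, 188 and 206 (-0.86 ± 0.10). The zinc carrier SLC39A11 of 447 kb read 361, 334 and 330.4 against 775, 779 and 760.4 (-1.17 ± 0.06).

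Abundance was also only weakly related to fraction. The Spearman correlation of the mean normalized count with log2 fold change was -0.169 across SLC genes and -0.119 across protein-coding genes. The 31 SLC genes under 100 normalized counts had a median of 0.29, with 6 called in chromatin, the 76 of 100 to 1000 a median of -0.46, and the 119 of 1000 or more a median of -0.44. Of the 6, 3 passed the filter through chromatin alone and had to differ. Protein-coding genes had medians of 0.19, -0.45 and -0.47 in the same bins, and 201 of their 1505 under 100 counts were called in chromatin. The lowest SLC group by both measures was that of 16 carriers under 10 kb and of 1000 or more counts (median -1.19). These include the ADP and ATP carriers SLC25A5 and SLC25A6, and 12 of the 16 were higher in nucleoplasm at the adjusted p. Among protein-coding genes, 65.7% of those under 10 kb and 62.3% of those of 1000 or more counts were higher there. The share for protein-coding genes that are both short and abundant was not computed. Per kb of exon the 5 highest members were SLC25A5 (17664 normalized counts per kb, mean of 6 libraries), SLC25A6 (7299.9), SLC1A5 (4615), SLC38A2 (3749) and SLC7A11 (3604). Exon length had a correlation of 0.167 with log2 fold change (0.341 in protein-coding genes) and transcript GC content -0.170 in both sets.

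**Figure D4:**
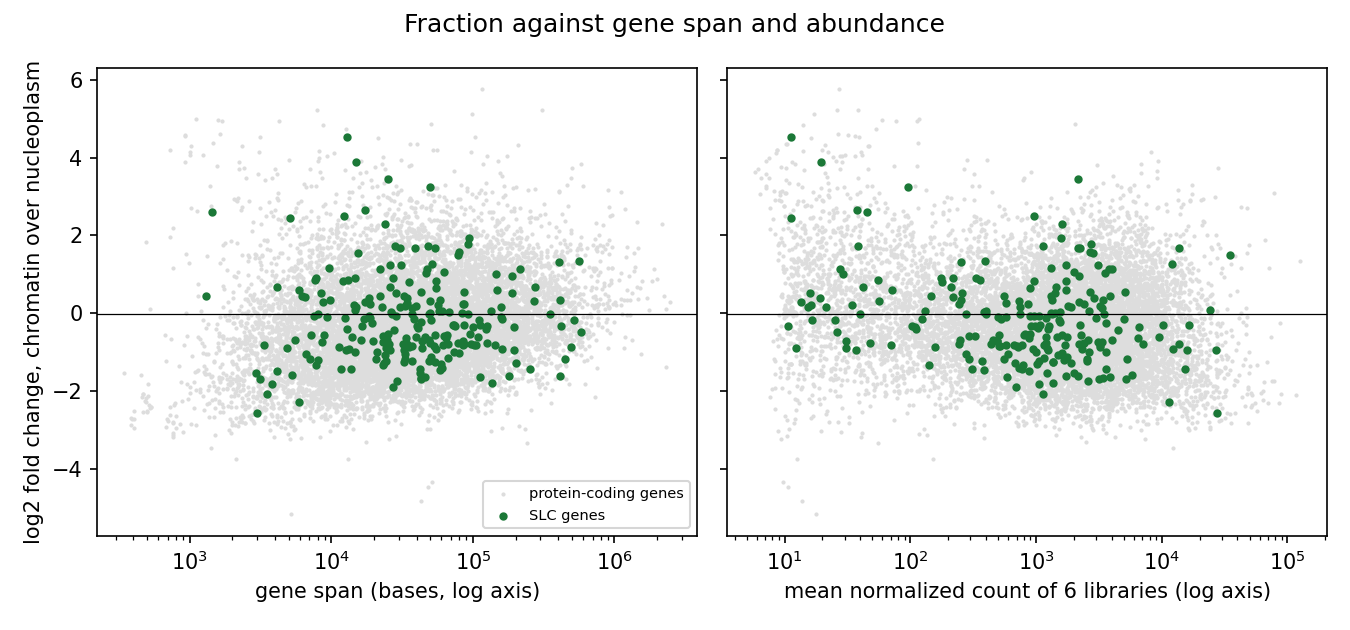
Log2 fold change of chromatin over nucleoplasm (y axis) against gene span in bases (left, log axis) and mean normalized count of 6 libraries (right, log axis), with SLC genes in green over the protein-coding genes tested in grey and the median of all loci as a line. The SLC genes show no slope with span (correlation 0.011) where the grey cloud has 0.234. Those above 2 are mostly genes of low count, 3 of which passed the filter through chromatin alone.

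Fractions overlapped in 37 members, and the smallest differences among them were in SLC24A1, SLC25A46 and SLC9A2. SLC25A46, a protein of the mitochondrial outer membrane, read 1323, 1326 and 1332 against 1358, 1332 and 1315 (-0.01 ± 0.04, adjusted p = 0.851). SLC24A1, a sodium, calcium and potassium exchanger, read 1494, 1442 and 1315 against 1399.7, 1432 and 1397 (0.01 ± 0.06, adjusted p = 0.93). The proton exchanger SLC9A2 read 34.9, 43.2 and 41.7 against 43.0, 37.9 and 39.7 (-0.01 ± 0.15, adjusted p = 0.94). A missed threshold does not show that these levels are the same, and the sign of each of the 3 changed in at least 1 other fit.

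Proteins that serve as partners of carriers lay on the nucleoplasm side in each of 4 cases. Of the 6 considered, these 4 were tested and all 4 were higher in nucleoplasm at the adjusted p, with 2 called. Of protein-coding genes 57.6% were higher there and 5.71% called. BSG, the chaperone that brings MCT1 and MCT4 to the membrane, read 6536, 5335 and 6544 against 36634, 38349 and 38278 (-2.63 ± 0.08). MPC2, a subunit of the mitochondrial pyruvate carrier, read 564, 532 and 599 against 2842, 2739 and 2846 (-2.31 ± 0.06), and its other subunit MPC1 had -1.17 ± 0.07. ATP1B3, a subunit of the sodium pump whose gradient drives many carriers, had -1.43 ± 0.05. None of the 4 changed sign under either other scaling. Other transporter families were tested in the same fit. The 15 MFSD genes tested of 17 had a median of -0.50, with 5 higher in chromatin and 9 in nucleoplasm. ABC transporters, 32 tested of 46, had a median of -0.30, with 10 and 15, and the 5 SLCO genes tested of 12 had -0.15, with 0 and 3. All protein-coding genes had a median of -0.39, with 30.1% higher in chromatin and 57.6% in nucleoplasm.

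Inside SLC genes, the count table also held separate loci within introns on the gene's strand, and these lay far on the chromatin side of their host genes. There were 69 such loci in 40 SLC genes, and 52 of them (75.4%) were called in chromatin, where 78.0% of 2999 loci within introns of tested protein-coding genes were called. Their median log2 fold change was 3.28, and 65 of 69 were higher than that of their host, the hosts' median being -0.43. Unnamed loci made up 43 of the 69, and 37 of these were called in chromatin and none in nucleoplasm. The 3 highest were 2 adjacent loci in SLC30A7, a zinc carrier of the Golgi, and 1 in SLC16A10, an aromatic amino acid carrier. The first in SLC30A7 (MSTRG.1610, hg38 chr1:100923284-100933020) held a mean of 1242 ± 288 in chromatin and 24.1 ± 3.26 in nucleoplasm (SD, n = 3), a log2 fold change of 5.61, while the host gene read 2618, 2549.6 and 2659 against 2233, 2373 and 2094 (0.23 ± 0.06). The second (MSTRG.1611, chr1:100933312-100945205) held 1340.4 ± 229 in chromatin and 27.7 ± 11.2 in nucleoplasm. The locus in SLC16A10 (MSTRG.28680, chr6:111092972-111100829) held 1319 ± 201 in chromatin and 33.4 ± 5.83 in nucleoplasm (5.27) in a host at -0.82. SLC25A43 held the most, with 9 loci in its introns. Intron RNA of the host and an independent transcript within the intron cannot be told apart from these counts.

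The 3 intronic loci called in nucleoplasm (beside 3.07% of such loci in all tested protein-coding genes) were processed pseudogenes, RNA-derived copies of other genes' messages. RPL17P43 within SLC47A1 held 48.3 ± 5.84 in chromatin and 545 ± 6.13 in nucleoplasm (-3.48), RPL29P4 within SLC35F1 held 604 ± 63.8 in chromatin and 3918 ± 143 in nucleoplasm (-2.70), and ST13P15 within SLC9A9 held 58.8 ± 3.86 in chromatin and 274 ± 18.9 in nucleoplasm (-2.20). Reads of such copies may be shared with their parent genes, and the values are uncertain for this reason.

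**Figure D5:**
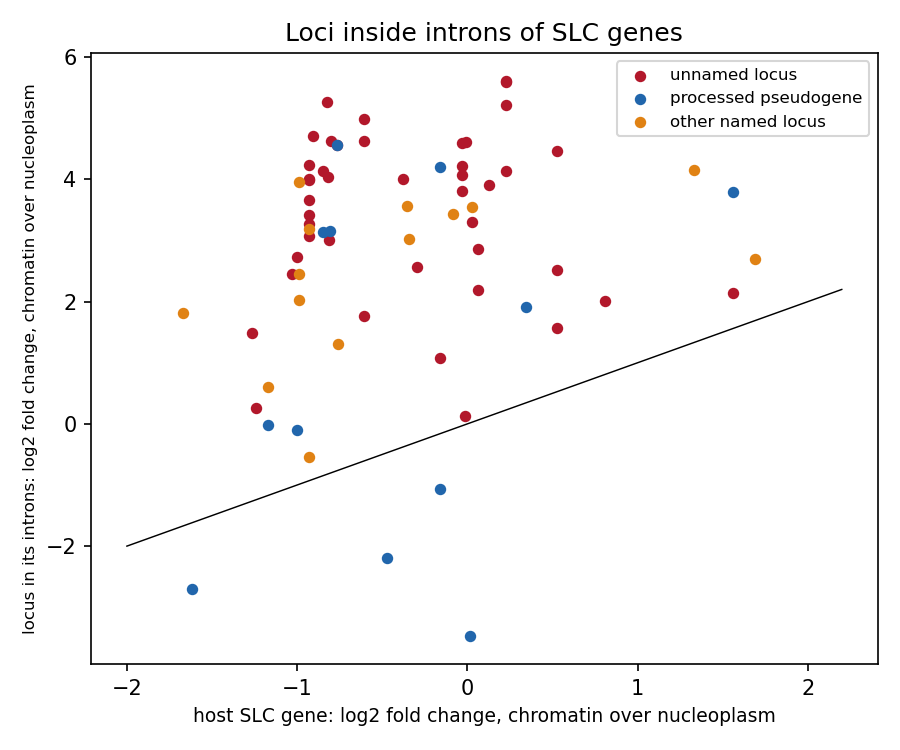
Log2 fold change of chromatin over nucleoplasm of 69 loci lying within introns of SLC genes on the same strand (y axis) against that of the host gene (x axis), with the line of equal values; red points are unnamed loci, blue points processed pseudogenes and orange points other named loci. All but 4 points lie above the line, and the 3 lowest are processed pseudogenes.

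On the opposite strand, 102 tested loci overlapped an SLC gene, of which 12 were called in chromatin (11.8%) and 4 in nucleoplasm, beside 21.2% and 8.47% of all loci tested. Long noncoding RNAs made up 29 of them and had a median of 0.98, with 22 higher in chromatin and 2 in nucleoplasm at the adjusted p. Of all 3438 long noncoding RNAs tested, 76.3% were higher in chromatin and 9.77% in nucleoplasm, so the count of 22 was near the background. The 57 protein-coding neighbours on the other strand had a median of -0.27. LAMTOR5-AS1, which overlaps the monocarboxylate carrier gene SLC16A4, was the most abundant of the called ones with 38312 ± 1853 in chromatin and 9202 ± 107 in nucleoplasm (2.06). SLC16A4 itself read 136, 40.8 and 15.4 against 11.4, 11.2 and 16.1 (1.73 ± 0.65), with one chromatin library far above the other two. Named after SLC genes, 17 noncoding RNAs were tested, 12 of them higher in chromatin and 2 in nucleoplasm. SLC12A2-DT, divergent from the SLC12A2 promoter, read 1090.1, 1555 and 1086 against 414, 430.4 and 419.9 (1.54 ± 0.13), and SLC16A1-AS1 read 865, 1027 and 873 against 269, 340.0 and 317 (1.58 ± 0.10), each with the opposite sign to the coding gene beside it.

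The tested copies of the ADP and ATP carrier SLC25A5 lay on the nucleoplasm side, like the gene. Of 9 annotated pseudogenes of SLC25A5, 6 were tested and all 6 were called in nucleoplasm, with a median of -2.78. Of all loci tested, 8.47% were called there. SLC25A5P5, the most abundant of the 6, read 41.9, 46.8 and 47.2 against 206, 206 and 229 (-2.21 ± 0.10). Over the canonical SLC25A5 transcript, 56 of 1258 windows of 50 bases, the length of a read, occur unchanged in at least 1 of these pseudogenes (4.45%), and 0 of them in SLC25A4 or SLC25A6. Reads from those windows cannot be assigned to one locus, so the pseudogene values, and a small part of that of SLC25A5, are uncertain. Copies of other carriers varied. Of 20 pseudogenes of SLC genes tested, these 6 included, 9 were called in nucleoplasm and 4 in chromatin. For SLC25A6, itself at -2.28, SLC25A6P2 was called in nucleoplasm (-2.44) and SLC25A6P3 in chromatin (3.53), the latter on low counts.

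Long reads from chromatin RNA held most of the carriers. A member was detected when its transcripts on the gene's strand were above 0 TPM (transcript abundance scaled to the same sum in each library) in both libraries, as was the case for 197 of 226 (87.2%), and 214 were above 0 in at least 1 library. Detection followed the short-read level, from 32.4% of 34 members under 100 normalized counts in chromatin, through 93.2% of 88 at 100 to 1000, to 100% of 104 at 1000 or more. Across the 197, mean TPM had a Spearman correlation of 0.724 with the chromatin count per kb, and the replicates one of 0.846. SLC25A6 had the highest level, with 499 and 345 TPM in the 2 libraries, and SLC3A2 had 146 and 136. SLC25A5 had 277 and 11.9 TPM, a difference between replicates that its short reads did not show. Of the genes called in chromatin, SLC25A28 had 19.6 and 11.5 TPM, SLC35B3 18.0 and 9.94 and SLC25A27 6.82 and 3.86, whereas SLC4A9 and SLC25A34 were at 0 in both. SLC7A11 had 23.4 and 38.3 TPM.

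The transcript with most of the signal was an annotated protein-coding one in 139 of the 197 and an assembled one without an annotated name in 38. In 9 it was annotated as keeping an intron. That was the case for the phosphate carrier SLC25A3 and the folate carrier SLC46A1. Such a transcript held 50.6% and 83.4%, respectively, of the TPM on the gene's own strand. Transcripts assembled on the opposite strand and matched to the gene's span were above 0 in both libraries for 34 members, and exceeded the transcripts of the gene's own strand in 6. They exceeded them in SLC25A27, with 16.9 and 5.91 TPM on the opposite strand or 68.1% of its signal. In SLC25A3 they held 244 and 242 TPM beside 50.4 and 66.5 on the gene's strand, and in SLC38A2 90.4 and 95.5 beside 32.1 and 56.3. Whether the long reads were assigned to a strand before assembly is not given in the sources used here, so that opposite-strand RNA and reads of unknown strand cannot be told apart.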

How the data were processed

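RNA of the chromatin and nucleoplasm fractions of HAP1 nuclei was measured in 3 short-read libraries a fraction, from independent cultures, and chromatin RNA in 2 nanopore long-read libraries. The authors aligned 50-base single-end reads to hg38 with ERCC sequences (HISAT2 2.1.0), assembled transcripts with StringTie, merged them over both fractions, counted reads per gene and deposited DESeq2-normalized gene counts, that is a signal of reads divided by a size factor for each library. The long-read file, deposited per transcript in TPM, came from minimap2 and StringTie. In all 6 short-read columns 100% of values were whole multiples of the value of 1 read (tolerance 0.01), so reads were recovered for the count tests. The SE values rest on the 3 libraries of a fraction and on limma's trend over all loci. The SD values cover the spread among those 3 libraries, and the floors cover counting error. None of these covers the scaling. Fractions of a fold can shift with the size factors, which set the 2 fractions level although their RNA content may differ.

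Loci with 10 or more normalized counts in 3 or more libraries, a span of at least 200 bases and no ERCC name were tested (26066 of 62727 rows), with limma 3.58.1 (trend) on log2(normalized count + 1) and Benjamini-Hochberg adjustment. The design file had assumed normalized counts, which the files hold. Rows were named from GENCODE 44 by stable identifier (26 members) or by the gene of the same strand with the largest shared span (200 members, Jaccard index at least 0.5). The members, substrate classes and lists were chosen with earlier results of these data known. Named genes were the 8 highest and 8 lowest past the adjusted p without overlap, the 5 highest per kb of exon, the 5 longest, a list of 20 well-known carriers (3 without a row), and 3 with the smallest difference among overlapping members. Other genes named were picked after their values were seen. Genome letters came from GRCh38 and exons from GENCODE 44. No protein sequence was used here. One gene of the list of carrier partners is not reported here. On simulated counts for 26066 genes with 200 changed by 3 log2 units, which is above the 4-fold limit, limma recovered 200 with 2 false calls. There edgeR 4.0.16 and DESeq2 1.42.0 recovered 200 with 3 false calls each. Recovery of smaller changes, of changes in more loci or under another scaling was not tested. Figures and tables were made with Python 3.11.15 in pandas 2.3.3, scipy 1.17.1 and matplotlib 3.10.9. Alternatives were another pseudocount (0.5 and 5), no filter or a mean count of 50 or more, edgeR and DESeq2 on recovered reads, scaling to the same total of gene or ERCC reads, a replicate block, leaving out each library, a 2-fold minimum and stricter naming.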

Additional observations from a re-analysis of the deposited data

How the results depend on the processing

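The calls on SLC genes moved with the fold minimum, the scaling and the filter on low counts. With no filter, 15 were called in chromatin, the median of the SLC genes was -0.11 (-0.40 relative to all loci), and the correlations with span and abundance were -0.0304 and -0.335. Among genes whose mean count was 50 or more these values were 4, -0.41, -0.16, 0.052 and -0.064, and 31 intronic loci were called. With the same total of gene reads there were 18 SLC calls for chromatin and 1 for nucleoplasm, 106 passed the adjusted p in chromatin, and the median was 0.13. With the same ERCC total there were 3 and 88 calls, 11 and 189 passed the adjusted p, the median was -1.65, the correlation with abundance -0.181, and 34 intronic loci were called. A 2-fold minimum gave 31 and 47 calls. DESeq2 gave a median of -0.24 and left 2 of the 3 calls in nucleoplasm, and a pseudocount of 5 left 8 of the 9 in chromatin. Of the 9, 4 remained called with a mean of 50 or more, which drops the other genes from the test, and 3 with the same ERCC total. Those 3 were SLC25A27 and, passing the filter through chromatin alone, SLC22A13 and SLC4A9. Of the 3 called in nucleoplasm, 1 remained with the same gene total. With stricter names the correlations were -0.021 and -0.148. Some choices were added after seeing the data. Requiring 10 normalized counts in all 6 libraries left 5 calls in chromatin, a median of -0.36 and correlations of 0.045 and -0.122, abundance per kb of exon gave -0.243, and leaving out SLC4A1AP and SLC7A6OS moved no call.

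Leaving out 1 library at a time gave 9 to 10 SLC calls for chromatin and 3 for nucleoplasm, 64 to 69 and 117 to 120 past the adjusted p, a median of -0.34 to -0.30 (-0.32 to -0.28 relative to all loci), correlations of -0.001 to 0.02 with span and -0.175 to -0.165 with abundance, 7 to 8 substrate classes below the median of all loci and 50 to 52 intronic loci called. Some small differences changed sign. With the same gene total SLC25A46 had 0.45, SLC9A2 0.44, SLC30A1 0.39, SLC8A1 0.27 and SLC38A1 0.16, and with the same ERCC total SLC38A2 had -1.24 and SLC24A1 -1.32. In edgeR SLC25A46 had 0.0183 and SLC9A2 0.0193, and in DESeq2 they had 0.0834 and 0.0845 and SLC30A1 0.0255. Without single libraries SLC24A1 ran from -0.0337 to 0.0584, SLC9A2 from -0.0704 to 0.0793, SLC30A1 from -0.129 to 0.0252, SLC38A2 from -0.00292 to 0.146, SLC8A1 from -0.426 to 0.102 and SLC25A46 from -0.0197 to 0.00353. The cause of these moves was not tested, apart from scaling, which shifts all loci, and filters, which change the loci tested.

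On recovered reads edgeR called 10 and 3 SLC genes (5675 and 2167 of all loci). With the replicate number as a block the counts of SLC genes called were 9 and 3, as without it, and the pairing changed no call past 4-fold. Deviations of same-numbered libraries correlated at 0.0871, 0.0533 and 0.0626, each library best with its own number. Values this weak cannot decide whether same-numbered libraries came from one culture, so the block is given as an alternative. Chromatin libraries were about as deep as each other but shallower than nucleoplasm ones, and genes with 0 to 6 nucleoplasm reads, such as SLC22A13 and SLC4A9, have folds that depth limits.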
